A study of Arabidopsis thaliana with 12 samples.

Results

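The genes described here are 53 Arabidopsis thaliana genes for which, among array values above 0 and after quantile normalization, every recovery value was below every light-adapted value. The values came from 12 arrays that profiled total RNA of wild-type plants of the ecotype Columbia 0, 6 light adapted and 6 taken from plants that had been put in darkness for 1 h and then returned to light. The recovery in light is 2 h in the titles and 1 h in the source names of the same samples, and the labels do not settle which is right. Below, "in the light" is short for the light-adapted group alone. The recovery plants had also been returned to light, so the contrast is not one of light against darkness. All plants were wild type, the labels give no plant age, organ or growth stage, and neither a sample from the end of the dark hour nor an untreated sample at the recovery time was analysed here, so darkness, return to light and elapsed time cannot be told apart.

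Members were chosen on the deposited intensities after log2 and quantile normalization over the 12 arrays, with a value of 0 taken as missing. A feature of the array had to be annotated with exactly 1 gene, to have 4 or more values above 0 in each group, and to have every measured recovery value below every measured light-adapted value. Of 3439 features on the array, 692 were annotated with 1 gene, 452 of these had enough values above 0, and 64 of the 452 met the rule. A fixed list of 12 genes was left out by name. Of these, 11 met the rule and PSB27, whose groups overlapped, did not, which leaves 53. Since the difference between the groups chose these genes, it is given below as a description of them, with no test, and nothing is supported by it.

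In plants, a change of light alters the levels of many nuclear transcripts through photoreceptors, through signals from the chloroplast that report its redox and metabolic state, and through sugars and the circadian clock. The chloroplast and the mitochondrion keep small genomes of their own but take most of their proteins from nuclear genes, so that RNA-binding proteins, helicases, protein translocases and enzymes made in the cytosol set how these organelles express genes and work. A lower transcript level after a light change can reflect less transcription or faster decay, and an array measures the balance of both. In RNA of bulk tissue, fewer cells of a type and less RNA per cell cannot be told apart.

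The absence of overlap was frequent on these arrays. It held in the lower direction for 310 of the 2364 features with enough values, or 13.1%, named or not, and for 14.2% of the features with 1 gene. In the higher direction it held for 314 features, or 13.3%, and for 46 of the features with 1 gene, or 10.2%. The members' log2 differences, recovery minus light adapted, ran from -5.77 to -0.39 with a median of -1.92, against a median of -0.038 over all 2364 features. By size, 49 of the 53 were at least 2-fold lower in recovery, 25 at least 4-fold and 11 at least 8-fold. Over all features 25.0% were at least 2-fold lower, 9.22% at least 4-fold and 3.72% at least 8-fold. In limma, a linear model fitted across all features, 50 members had an adjusted p under 0.05, beside 18.4% of all features in that direction. The 3 others were AT5G48830, AT2G38550 and AT5G53920. The count was 46 with the replicate number as a block, beside 18.0% of all features, and 28, beside 8.71%, when each group was reduced to 3 means, of arrays 1 and 2, 3 and 4, and 5 and 6. These counts are fixed in large part by the rule and are not read further.

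Deposited intensities run from 0 to a ceiling of 100, and how the authors scaled them is not given in the sources used here. Array medians ran from 0.0710 to 0.103 on the light-adapted arrays and from 0.0358 to 0.0400 on the recovery arrays, and exact zeros made up 17.9% to 22.2% and 23.3% to 28.6% of the features. At the median, members were brighter in the light-adapted group than the features with 1 gene and close to them in recovery. The median over members of the mean light-adapted intensity was 0.429, against 0.156 over the 452 features with 1 gene and enough values. For the mean recovery intensity, the medians were 0.0560 over members and 0.0578 over the 452. This follows in part from the rule, which takes genes that were high in one group. None of the 24 marker genes listed for leaf, guard cell, phloem, root, pollen and seed lay on a feature with 1 gene, so the tissue could not be checked in this way.

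**Figure D1:**
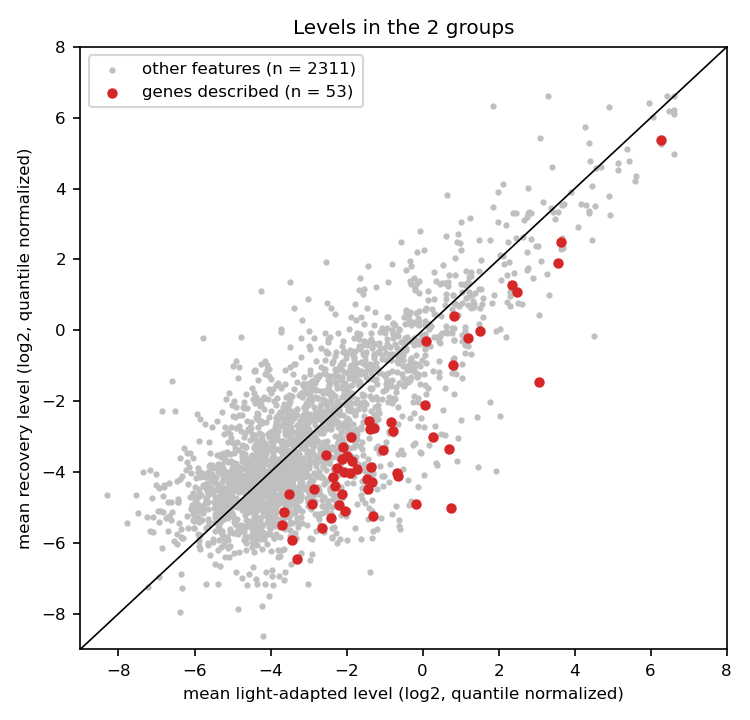
Mean recovery level against mean light-adapted level, both as quantile-normalized log2 intensities averaged over the measured arrays of a group, for the 53 genes described (red) and the other features with enough values above 0 (grey). The black line marks equal levels. The red points lie below the line over the whole range of levels, from dim genes such as AT3G02690 to AT4G22830 near the ceiling, and many grey points lie among them.

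The reference table gives 2 of the 53 a gene symbol of their own, SECE1 and PRA1.B3, and the rest carry their locus name. Keywords searched in the table's symbols and synonyms classed 0 members, and 27 of the 452 features with 1 gene and enough values. The protein classes below are therefore general knowledge of these loci and not a content of the files, and they were assigned after the members were known. No class was counted among the other features, so the size of a class has no background. A class is stated for 35 genes and left out for 18. All 53 loci are protein coding. Gene length was similar to that of the other features, at a median of 2051 bp over members and 2107 bp over the features with 1 gene and enough values. In what follows the values of a group are its lowest, median and highest deposited intensity over the arrays above 0, which are 6 unless another number is given, and the difference is the log2 difference of quantile-normalized values with its standard error from limma.

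**Figure D2:**
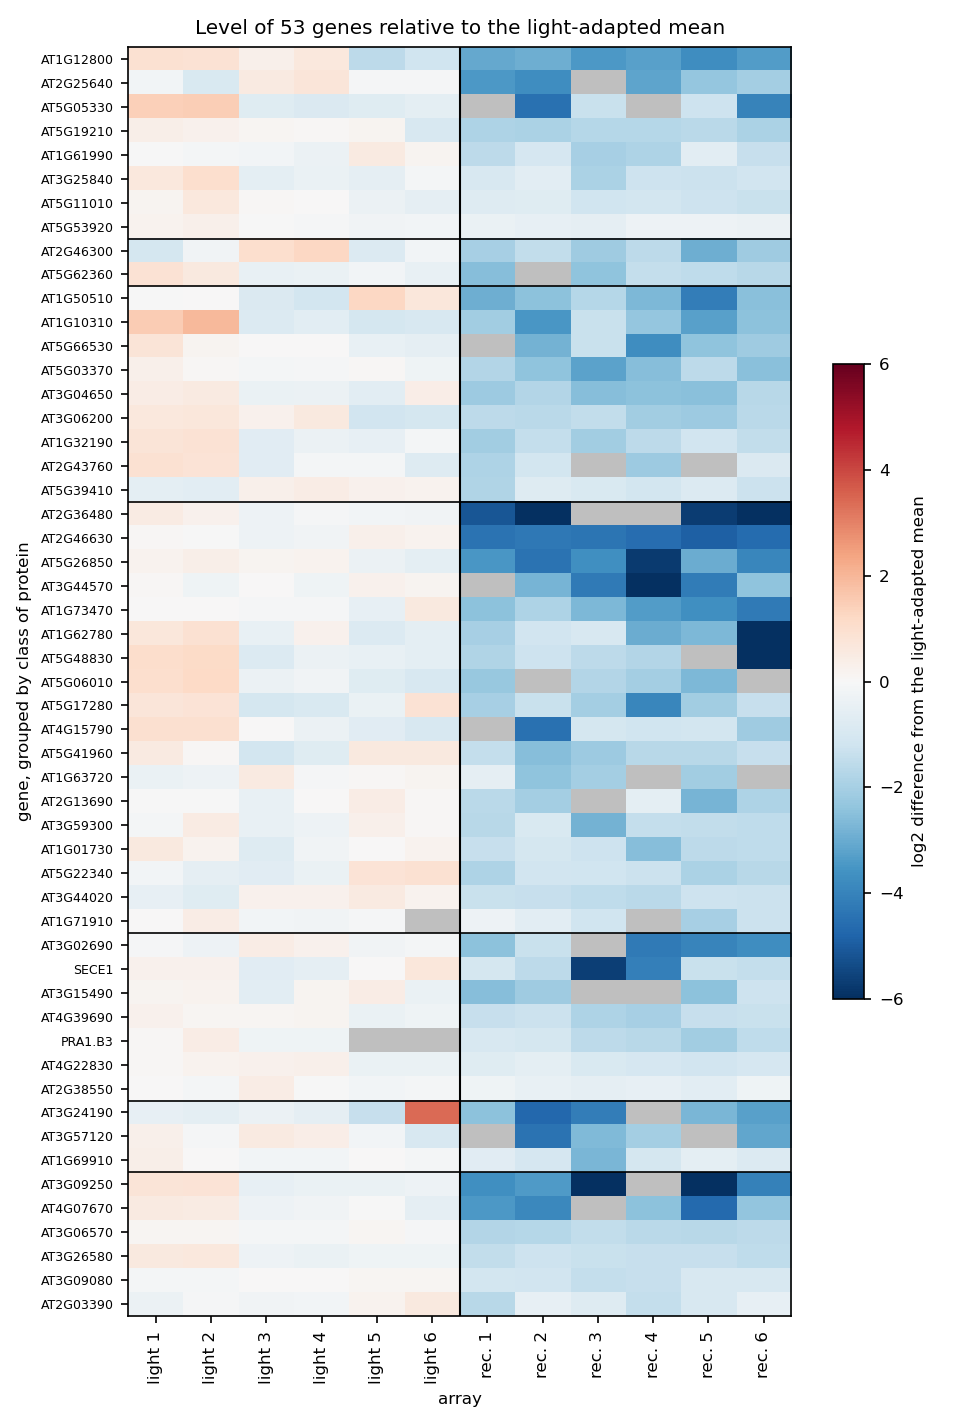
Quantile-normalized log2 level of each of the 53 genes on each of the 12 arrays, minus the gene's light-adapted mean, with the genes in rows grouped by class of protein (horizontal lines) and the arrays in columns (the vertical line parts light-adapted from recovery arrays). Blue is lower and red higher, the colours end at 6 log2 units, and grey marks an intensity of 0, taken as missing. The classes from top to bottom are RNA, transcription and translation, then cell wall and stress-type proteins, metabolic enzymes, genes with no role given, membrane and trafficking, kinases and proteins with interaction domains. Missing values lie mostly on recovery arrays.

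Genes that act on RNA, on transcription or on translation made up 8 of the 53, with a median difference of -1.60. AT1G12800, which encodes a protein with S1 RNA-binding domains, had intensities of 0.408, 1.93 and 2.30 in the light and 0.0579, 0.0968 and 0.108 in recovery, a difference of -3.30 ± 0.441. Its light-adapted arrays 5 and 6 were far dimmer than the other 4, but both lay above every recovery array. AT2G25640, which encodes a protein with SPOC and transcription elongation factor S-II-like domains, was at 0.255, 0.387 and 0.919 in the light and at 0.0199, 0.0321 and 0.0628 on 5 recovery arrays, a difference of -2.94 ± 0.387. For AT5G05330, a gene for a DNA-binding protein with an HMG box, values were 0.153, 0.207 and 0.588 light adapted and 0.00670, 0.0349 and 0.0694 on the 4 recovery arrays above 0, and the difference was -2.76 ± 0.806. This gene varied widely within both groups, with normalized SDs of 1.12 and 1.71, and was at 0 on recovery arrays 1 and 4.

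Brighter and less variable was AT5G19210, which encodes an RNA helicase of the DEAD-box family, at 0.895, 1.86 and 2.35 light adapted and 0.369, 0.417 and 0.660 in recovery, a difference of -1.78 ± 0.231. On the deposited scale its lowest light-adapted value, on array 6, stood clear of the highest recovery value, on array 4. After each array was centred on its median the groups overlapped, at a difference of -0.90. AT1G61990, of the family of mitochondrial transcription termination factor (mTERF) proteins that act in organelle gene expression, was at 0.385, 0.430 and 0.525 in the light against 0.0782, 0.0918 and 0.167 in recovery, a difference of -1.41 ± 0.263. The groups were well apart on the deposited scale. Its normalized SDs were 0.306 light adapted and 0.519 in recovery, beside medians over the members of 0.476 and 0.538. AT3G25840 encodes a kinase of the PRP4 type, which in other eukaryotes acts on the splicing machinery. It was at 0.186, 0.263 and 0.473 in the light against 0.0487, 0.0732 and 0.101 in recovery, and it had the narrowest margin of all members, with a lowest light-adapted value of -2.68 and a highest recovery value of -2.71 on the normalized log2 scale. AT5G11010, of a pre-mRNA cleavage complex family, was bright in both groups, at 2.80, 5.05 and 6.01 in the light against 1.70, 2.89 and 3.12 in recovery, a difference of -1.06 ± 0.226. AT5G53920, related to the methyltransferases of ribosomal protein L11, was at 0.908, 1.15 and 1.40 in the light against 0.668, 0.688 and 1.09 in recovery, and its difference of -0.39 ± 0.162 was the smallest among the 53. For both of these genes the groups overlapped on the deposited scale and were apart only after quantile normalization.

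Metabolic enzymes were the most numerous of the stated classes, with 9 genes and a median difference of -2.18, and all 9 were at least 2-fold lower in recovery. AT1G50510, the gene for a glycosidase that splits pseudouridine 5′-phosphate in nucleoside breakdown, was at 0.265, 0.390 and 0.811 in the light and 0.0127, 0.0428 and 0.0934 in recovery, a difference of -2.74 ± 0.468. Light-adapted arrays 5 and 6 were its highest, and recovery array 5 was its lowest. AT1G10310, which encodes a short-chain reductase of pterin aldehydes, was at 0.127, 0.227 and 0.821 in the light against 0.0140, 0.0309 and 0.0716 in recovery, a difference of -2.50 ± 0.597. Here light-adapted arrays 1 and 2 stood above the other 4. AT5G03370, a gene for an acylphosphatase, was at 0.423, 0.552 and 0.627 in the light against 0.0390, 0.0637 and 0.109 in recovery, a difference of -2.34 ± 0.271. It was the steadiest of these genes in the light, and its lowest light-adapted value was above its highest recovery value by 1.31 on the normalized log2 scale.

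AT3G04650, which encodes an oxidoreductase with an FAD or NAD(P) binding fold, was the brightest of the enzymes in the light, at 0.622, 1.21 and 1.38, and at 0.121, 0.176 and 0.249 in recovery, a difference of -2.18 ± 0.281. AT3G06200, for a guanylate kinase-like enzyme of nucleotide metabolism, was at 0.277, 0.823 and 1.15 in the light against 0.0820, 0.127 and 0.192 in recovery, a difference of -1.76 ± 0.363. As for AT1G12800, light-adapted arrays 5 and 6 were its dimmest. The alpha/beta hydrolase gene AT1G32190 was at 0.115, 0.167 and 0.298 in the light against 0.0216, 0.0342 and 0.0409 in recovery, a difference of -1.64 ± 0.313, and the saccharopine dehydrogenase-like AT5G39410 at 0.228, 0.330 and 0.502 in the light against 0.0514, 0.104 and 0.131 in recovery, a difference of -1.11 ± 0.269. Both were dim on all recovery arrays. AT5G66530, which encodes a protein like aldose 1-epimerases, was dim in both groups, at 0.0807, 0.150 and 0.217 in the light and 0.00529, 0.0103 and 0.0260 on 5 recovery arrays, a difference of -2.49 ± 0.402. AT2G43760, for the large subunit of molybdopterin synthase in molybdenum cofactor synthesis, was dimmer still in the light, at 0.0578, 0.103 and 0.203, and at 0.0118, 0.0194 and 0.0306 on 4 recovery arrays, a difference of -1.51 ± 0.430. The sizes of both are uncertain because recovery values were near 0, and 3 recovery values of the pair of genes were missing.

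Membrane proteins and proteins of trafficking and translocation made up 7 members, 5 of them at least 2-fold lower, with a median difference of -1.53. SECE1, which encodes a subunit of a Sec translocase of the chloroplast, was at 0.364, 0.439 and 0.607 in the light and 0.00471, 0.0932 and 0.135 in recovery, a difference of -2.52 ± 0.741. Its recovery values lay at 2 levels, with arrays 3 and 4 at 0.00471 and 0.0152 and the other 4 between 0.0885 and 0.135, and the difference was -1.86 without recovery array 3. PRA1.B3, a prenylated RAB acceptor of vesicle trafficking, had 0.448, 0.473 and 0.544 on 4 light-adapted arrays and 0.0628, 0.116 and 0.152 in recovery, a difference of -1.48 ± 0.278. It was listed at 0 on light-adapted arrays 5 and 6, which the rule did not count, so that its recovery values were above 2 of the 6 light-adapted arrays. With zeros kept through a pseudocount of 0.01 its difference turned to 0.53. AT3G02690, an EamA-type transporter gene, was at 0.105, 0.133 and 0.221 in the light and at 0.00369, 0.00585 and 0.0266 on 5 recovery arrays, a difference of -3.14 ± 0.485, and AT3G15490, whose product resembles the IST1 proteins of multivesicular bodies, at 0.182, 0.282 and 0.342 in the light and 0.0236, 0.0274 and 0.0569 on 4 recovery arrays, a difference of -2.10 ± 0.329. Both were near 0 in recovery, which leaves their sizes uncertain.

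AT4G39690, which encodes mitofilin, an organiser of the mitochondrial inner membrane, was bright and steady, at 1.95, 2.66 and 3.88 in the light against 0.844, 0.945 and 1.05 in recovery, a difference of -1.53 ± 0.203. Its groups were well apart. AT4G22830, for a YCF20-like protein, was the brightest member, at 37.4, 93.2 and 100 in the light and 36.1, 59.1 and 70.9 in recovery, a difference of -0.91 ± 0.199. On light-adapted arrays 3 and 4 it was at the ceiling of 100, so its level there is only a bound. Its groups overlapped on the deposited scale. Intensity was lower in recovery in 5 of the 6 pairs of same-numbered arrays, but arrays 5 and 6 had 38.8 and 37.4 in the light against 36.1 and 37.8 in recovery. AT2G38550, of the TMEM14 family of plastid fatty acid exporters, was at 1.45, 1.55 and 2.87 in the light against 0.891, 1.24 and 1.58 in recovery, a difference of -0.44 ± 0.172, and also overlapped on the deposited scale.

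The class of protein kinases held 3 genes, and the PRP4-type kinase AT3G25840 is counted above with the genes of RNA. AT3G24190, an atypical kinase of the ABC1 type, was at 0.266, 0.526 and 6.05 in the light and 0.0165, 0.0450 and 0.0770 on 5 recovery arrays, a difference of -3.47 ± 0.792. Light-adapted array 6, at 6.05, stood far above the other 5, which lay between 0.266 and 0.662, and without it the difference was -2.82. AT3G57120, of the protein kinase superfamily, was at 0.148, 0.306 and 0.470 in the light and 0.00722, 0.0237 and 0.0440 on 4 recovery arrays, a difference of -3.06 ± 0.467. AT1G69910, of the same superfamily, was at 0.358, 0.432 and 0.492 in the light against 0.0414, 0.155 and 0.174 in recovery, a difference of -1.14 ± 0.338. Of the 3, AT1G69910 was the least changed and was above 0 on all arrays.

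Of the proteins with interaction domains there were 6, and the largest difference was that of AT3G09250, which encodes a protein with an NTF2-like fold. It was at 0.627, 0.899 and 1.38 in the light and 0.00607, 0.0369 and 0.0546 on 5 recovery arrays, a difference of -4.74 ± 0.597. Its lowest light-adapted value was far above its highest recovery value. AT4G07670, whose product has a protease-associated domain, was at 0.434, 0.716 and 0.841 in the light and 0.0158, 0.0385 and 0.0970 on 5 recovery arrays, a difference of -3.36 ± 0.424. The other 4 were above 0 on all arrays. AT3G06570, with F-box and kelch repeats, was at 9.39, 10.3 and 12.8 in the light against 3.24, 3.68 and 5.93 in recovery, a difference of -1.64 ± 0.151. AT3G26580, with tetratricopeptide repeats, was at 4.07, 5.08 and 6.37 in the light against 1.60, 2.07 and 2.92 in recovery, a difference of -1.39 ± 0.228, and AT3G09080, with WD40 repeats, at 8.72, 10.7 and 15.6 in the light against 5.55, 5.90 and 6.76 in recovery, a difference of -1.17 ± 0.165. For AT3G26580, light-adapted arrays 1 and 2 lay above the other 4 after normalization. The groups of all 3 genes were apart on the deposited scale but overlapped after each array was centred on its median. The differences there were -0.39 for AT3G06570, -0.22 for AT3G26580 and 0.088 for AT3G09080. AT2G03390, with a uvrB/uvrC motif, was dimmer, at 0.185, 0.233 and 0.270 in the light against 0.0358, 0.0680 and 0.0822 in recovery, a difference of -0.97 ± 0.262.

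A pair of genes belonged to cell wall and stress-type families. AT2G46300, for a hydroxyproline-rich glycoprotein of the late embryogenesis abundant type, was at 0.316, 0.493 and 1.74 in the light against 0.0485, 0.107 and 0.182 in recovery, a difference of -2.05 ± 0.426. Light-adapted arrays 3 and 4 were its highest. AT5G62360, of the family of pectin methylesterase inhibitors, was at 0.197, 0.277 and 0.447 in the light and 0.0275, 0.0487 and 0.0713 on 5 recovery arrays, a difference of -1.92 ± 0.341. All its measured recovery values were well below the lowest light-adapted one.

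The 18 genes for which no role is given held some of the deepest differences, with a median of -2.05, and all were at least 2-fold lower. AT2G36480 had the largest of all members, -5.77 ± 0.277, at 1.42, 1.72 and 2.03 in the light and 0.0160, 0.0194 and 0.0318 on the 4 recovery arrays above 0. Recovery arrays 3 and 4 were at 0. AT2G46630 was bright in the light, at 6.07, 8.15 and 8.68, and at 0.201, 0.337 and 0.452 in recovery, a difference of -4.53 ± 0.182. It was above 0 on all arrays, and its standard error was among the smallest of the members. AT5G26850 was at 1.06, 1.71 and 2.29 in the light against 0.0210, 0.0844 and 0.132 in recovery, a difference of -4.03 ± 0.406. AT3G44570 was at 0.375, 0.450 and 0.542 in the light and 0.00459, 0.0142 and 0.0495 on 5 recovery arrays, a difference of -3.93 ± 0.547, which was -3.34 without recovery array 4. AT1G73470 was at 0.283, 0.434 and 0.539 in the light against 0.0140, 0.0340 and 0.0676 in recovery, a difference of -3.05 ± 0.375. In none of these 5 genes did any recovery value reach the lowest light-adapted one on the deposited scale.

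In 3 genes of this kind a single recovery array weighed on the size. AT1G62780 was at 0.107, 0.241 and 0.340 in the light against 0.000701, 0.0215 and 0.0646 in recovery, a difference of -2.92 ± 0.971 that was -1.96 without recovery array 6. AT5G48830 was at 0.149, 0.206 and 0.427 in the light and 0.000690, 0.0404 and 0.0523 on 5 recovery arrays, a difference of -2.89 ± 1.12 that was -1.59 without the same array. AT4G15790 was at 0.0837, 0.195 and 0.306 in the light and 0.00370, 0.0410 and 0.0492 on 5 recovery arrays, a difference of -1.98 ± 0.644 that was -1.35 without recovery array 2. In each of these cases the array was the lowest above 0 in its group.

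The other 10 were mostly dim. The median light-adapted and recovery intensities were 0.373 and, on 4 arrays, 0.0489 for AT5G06010, with a difference of -2.19, and 0.342 and 0.0478 for AT5G17280, with a difference of -2.12. For AT5G41960 they were 0.374 and 0.0611, with a difference of -1.82. AT1G63720, at 0.242 and, on 4 recovery arrays, 0.0322, and AT2G13690, at 0.114 and, on 5 recovery arrays, 0.0151, both had a difference of -1.78. All 5 were dim in recovery. AT3G59300, at 0.260 and 0.0492, had a difference of -1.64, AT1G01730, at 0.315 and 0.0621, one of -1.55, and AT5G22340, at 0.268 and 0.0581, one of -1.51. AT1G71910, at 0.123 and 0.0265 on the 5 arrays above 0 in each group, had a difference of -1.09. AT3G44020 was the exception in brightness, at 1.20, 2.51 and 3.34 in the light against 0.739, 0.768 and 0.945 in recovery, a difference of -1.40 ± 0.239.

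**Figure D3:**
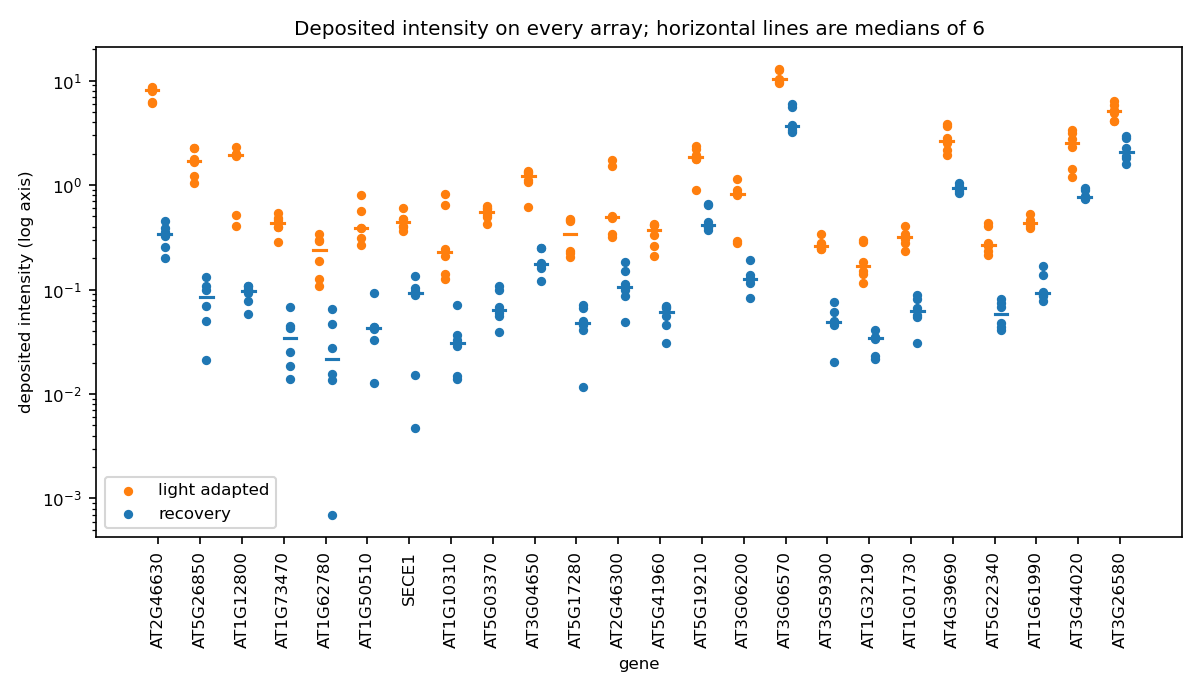
Deposited intensity on a log axis for the 24 genes with the largest differences among the 33 that were above 0 on all 12 arrays, with 6 light-adapted values (orange) and 6 recovery values (blue) per gene and horizontal lines at the medians. For each of the 24 genes the lowest orange point lies above the highest blue point. AT1G62780 and SECE1 have recovery points far below the others of their group.

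Zeros were unevenly spread over the members. Of 318 member values in each group, 3 were 0 in the light and 26 in recovery. They touched 18 members in recovery only, 1 in the light only (PRA1.B3) and 1 in both groups (AT1G71910), while 33 were above 0 on all arrays. Of the 11 members at least 8-fold lower, 10 had a mean recovery intensity under 0.1 and 7 had a 0 in recovery, so their sizes rest on values near the floor of the table. The eleventh was AT2G46630. By array, the zeros of members numbered 7 each on recovery arrays 3 and 4, 5 on array 1, 3 on array 5 and 2 each on arrays 2 and 6.

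Members also shifted together from array to array within a group. The median deviation of the members from their group means was 0.23 and 0.22 on light-adapted arrays 1 and 2, against -0.22 to -0.13 on arrays 3 to 6. In recovery it was 0.16 and 0.24 on arrays 1 and 2 and between -0.094 and 0.049 on the others. Over all features tested the same medians ran from -0.035 to 0.093 in the light and from -0.038 to 0.10 in recovery, with arrays 1 and 2 again on the high side, beside recovery arrays 5 and 6. Over the features with 1 gene and enough values they were 0.16 on both light-adapted arrays 1 and 2, and -0.076 to 0.037 on arrays 3 to 6. In recovery they were 0.069 and 0.15 on arrays 1 and 2, and -0.083 to 0.14 on the others. The high side of arrays 1 and 2 was thus not particular to the members. The labels name no batch to which arrays 1 and 2 belong, and the part of these shifts in the members' values was not tested. Sums of deposited intensities were alike on arrays 1 and 2, 3 and 4, and 5 and 6. Light adapted they were 2557 and 2559, 3233 and 3265, and 2286 and 2316. In recovery they were 2539 and 2593, 3314 and 3287, and 2288 and 2309. The labels do not say whether such arrays repeat 1 sample, and the standard errors count all 6 arrays of a group as separate values. The array that held the lowest light-adapted value, and so set the margin, was array 3, 5 or 6 for 38 of the 53 genes, and recovery array 2 held the highest recovery value for 17.

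Near the limit of the rule, the members with the narrowest margins were AT3G25840, AT2G38550 and AT4G15790, with gaps of 0.035, 0.064 and 0.088 on the log2 scale between the lowest light-adapted and the highest recovery value. The nearest genes outside it were NdhS, a subunit of the chloroplast NADH dehydrogenase-like complex, AT4G16410 and AT5G52810, which overlapped by 0.024, 0.026 and 0.030 and had differences of -0.61, -0.58 and -1.68. The rule thus parted genes of like behaviour at this end, while the widest gap, that of AT2G36480, was 4.86.

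Features that list a member beside other genes gave a second reading for some of them. There were 6 such features, and 4 had enough values to be compared. A feature shared by PRA1.B1, PRA1.B2 and PRA1.B3 had a difference of -3.45, and one shared by AT5G19210 and 2 other genes a difference of -0.34. One shared by AT2G38550 and AT3G57280 was at 0.95, and one shared by AT1G61990 and 3 other genes at 1.41, opposite in sign to the feature that lists the member alone. Which of the listed genes gave the signal on such a feature is not known.

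The scaling mattered most for the bright members. On the deposited scale, without normalization, the median difference over all features was -0.82, and all 53 members were lower, with a median of -2.72. There, 49 kept their groups apart among the values above 0, where 22.9% of all features did so. After each array was centred on its median, the median over all features was 0.19 and that of the members -1.70, 48 members were lower, and 40 kept their groups apart, where 8.54% of all features did. Limma called 435 features lower and 438 higher after quantile normalization, 870 and 226 with unnormalized values, and 323 and 646 with median centring. Under all 3 scalings 40 members had no overlap, 33 of the 37 with a mean light-adapted intensity under 1 and 7 of the 16 above it. The share of all features apart under all 3 was not counted. The members were already chosen as apart after quantile normalization, so the 40 has no background to be read against. The sign turned after median centring for AT4G22830 at 0.58, AT2G38550 at 0.48, AT5G53920 at 0.43, AT5G11010 at 0.15 and AT3G09080 at 0.088. Of these, AT4G22830, AT2G38550 and AT5G53920 also lay above the median of all features on the deposited scale, at -0.42, -0.52 and -0.56, so that they were lower in recovery by less than the typical feature.

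**Figure D4:**
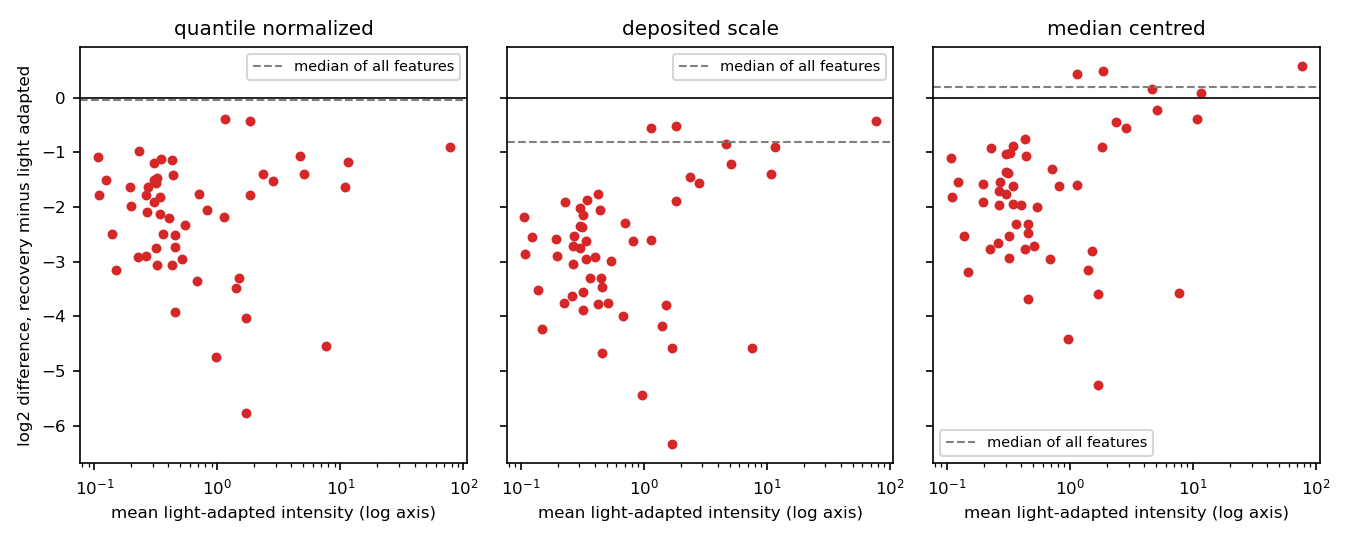
Log2 difference, recovery minus light adapted, of each of the 53 genes against its mean light-adapted intensity (log axis), for quantile-normalized, unnormalized (deposited) and median-centred values. The solid line marks 0 and the dashed line the median of all features tested under that scaling. Dim genes lie below both lines in all 3 panels, and 5 of the brighter genes lie above 0 after median centring.

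By class, the 40 genes apart under all 3 scalings were 7 of the 9 metabolic enzymes, 5 of the 8 genes of RNA, transcription and translation, 5 of the 7 of membranes and trafficking, 3 of the 3 kinases, 3 of the 6 with interaction domains, 1 of the 2 of cell wall and stress-type families and 16 of the 18 with no role given. These counts only list where the genes fell. All members were chosen as apart, and no class was counted among other features, so they say nothing about the classes. Among the 5 deepest, AT2G36480, AT3G09250, AT2G46630, AT5G26850 and AT3G44570, the median-centred differences were -5.25, -4.41, -3.57, -3.58 and -3.69. On the deposited scale they were -6.34, -5.44, -4.57, -4.58 and -4.68. The groups of these 5 stayed apart under all 3 scalings. This follows in large part from taking the 5 by size, as their gaps after quantile normalization were 2.16 to 4.86, and it supports nothing further.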

How the data were processed

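The intensities deposited by the authors were used as 1 table of 3439 features on 12 arrays, 6 per group, with 1 channel each. They were taken as linear because they are never negative and include zeros. How they were scanned, background corrected, normalized and centred stays unknown (not given in the sources used here), and no ratio direction had to be assumed. Gene names came from the platform annotation, updated by gene identifier to the RefSeq table of assembly TAIR10.1, in which all 53 members matched. Values above 0 were taken to log2 and quantile normalized. All 2364 features with at least 4 values above 0 in each group entered limma 3.58.1 (lmFit, then eBayes, in R 4.3.3, two-sided, Benjamini-Hochberg over all of them, threshold 0.05). The script was tested on simulated data. Plots used matplotlib 3.10.9 and Python 3.11.15.

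The members, lists and tests were chosen with earlier results of these data known. The rule for naming took the 24 members with the largest difference among those above 0 on all 12 arrays, those not above 0 on all arrays with a known role, and the 3 genes nearest the limit on either side. The other members were named after their values were seen. Function classes were to come from gene descriptions, which the table does not hold, so they were assigned by hand.

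The labels do not say whether arrays came from separate plants, so standard errors and p-values cover the spread of these arrays alone, and that spread may be technical. Array values have no read depth, and their precision is limited by how many arrays there are. Same-numbered arrays of both groups deviated together weakly, with r from 0.11 to 0.19 over the 1429 features above 0 on all arrays. The highest r with another number ran from -0.0071 to 0.106, and for number 1 it was 0.106 beside 0.108. Over the 33 members above 0 on all arrays, r of same numbers ran from -0.053 to 0.35. On this weak evidence the numbers were taken to pair the arrays in the replicate block. The main fit and the standard errors given for genes did not use the pairing. Alternatives were no normalization, median centring, a pseudocount of 0.01, 2 other filters on zeros, a replicate block, means of arrays 1 and 2, 3 and 4, and 5 and 6, and leaving out each array. Leaving out both arrays of such a set in each group, with at least 3 values above 0 per group required, was added after seeing the data.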

Additional observations from a re-analysis of the deposited data

Results flagged for a closer look

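Within single groups, 8 of the 106 groups of 4 to 6 member values held an array far from the others, 3 light adapted and 5 in recovery. Chance alone puts about 1 in 20 groups there. Values are normalized log2 levels of that array and of its nearest neighbour. In the light, AT3G24190 was at 2.77 on array 6, against -1.01 on the next. AT5G19210 was low on the same array, at -0.14 against 0.88, and AT2G38550 was high on array 3, at 1.27 against 0.83. In recovery, all 5 were low values. AT1G62780 was at -10.39 and AT5G48830 at -10.48 on array 6, against -5.63 and -4.20 on the nearest arrays, where their deposited intensities of 0.000701 and 0.000690 were just above 0. AT5G17280 was at -5.83 on array 4, against -4.02, and AT1G01730 at -4.54 on the same array, against -3.55. AT1G69910 was at -4.16 on array 3, against -2.48.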

How the results depend on the processing

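The number of genes that met the rule, 53, was 103 on the deposited scale, 40 after median centring, 41 with the pseudocount, 33 with values above 0 required on all 12 arrays and 61 with at least 3 per group. With the replicate block, where recovery had to be lower only within same-numbered pairs, the number of genes was 99, beside 22.1% of all features. With means of array sets it was 98, beside 22.0%. It was 50 to 62 when 1 array was left out, and 77, 75 and 87 without arrays 1 and 2, 3 and 4, or 5 and 6 of both groups. Fewer arrays leave fewer values that must not overlap. Where a set was left out, the filter was also lowered to 3 values above 0 per group, so these counts are not at the filter of the 53. The median difference of the members, -1.92, was -2.72 on the deposited scale, -1.70 after median centring and -1.64 for the 33 above 0 on all arrays. Without arrays 1 and 2 it was -1.69 over the 48 members that still had enough values. It was -2.01 to -1.76 when 1 array was left out, over the 47 to 53 members with enough values then, so these medians are not all over the same genes. Features lower in recovery in limma numbered 435 of 2364, with 438 higher. With unnormalized values these were 870 and 226, with median centring 323 and 646, 206 and 199 with set means, 426 and 406 with the block, and 376 to 435 were lower when 1 array was left out. Signs turned for AT4G22830 (0.58), AT2G38550 (0.48), AT5G53920 (0.43), AT5G11010 (0.15) and AT3G09080 (0.088) after median centring, and for PRA1.B3 (0.53) with the pseudocount, which counts its 2 light-adapted zeros. Median centring moves all values of an array by the same amount. The 5 members that turned with it had the deposited-scale differences nearest 0, from -0.91 to -0.42. The cause of the difference in array medians between the groups was not tested. Values near 0 limit the precision of most members.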
